A study of Danio rerio with 2 samples.

Results

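Ribosome biogenesis genes and *mycn* were followed through every cell class of cranial neural crest cells (NCCs) of the zebrafish at 36 hpf. The members were chosen by symbol, as all genes whose name is nop, utp, rrp or noc followed by a digit, together with *mycn*, *npm1a*, *dkc1*, *fbl*, *ncl*, *nhp2*, *gar1*, *nolc1*, *bop1*, *wdr12*, *wdr43* and *mybbp1a*. This gave 38 genes of the 25434 features in the files. These names were selected on marker lists and lists of YM-changed genes that had been drawn from the same libraries. Both the difference between classes and the difference between treatments were therefore in view when the genes were picked, and their values are given as descriptions with no test.

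Ribosomes are assembled in the nucleolus, where RNA polymerase I transcribes a long precursor rRNA that is cleaved, chemically modified and folded around ribosomal proteins. Box C/D ribonucleoproteins methylate the rRNA and box H/ACA ribonucleoproteins turn uridines into pseudouridines, a large complex called the small subunit processome assembles the small subunit, and other factors mature the large subunit. Proteins of the Myc family, of which N-Myc is encoded by *mycn*, bind the promoters of many of these genes, and some human disorders of ribosome assembly affect the facial bones, which derive from NCCs.

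The study sorted double-positive cells of Tg(sox10:mRFP) and Tg(fli1a:EGFP) embryos that had been kept from 16 to 36 hpf in DMSO, the solvent control, or in 100 µM YM-254890 (YM), an inhibitor of Gq/11 proteins. Each arm began with 70 embryos, less 10 that were kept back, whose heads were combined into 1 suspension, and 8000 of its sorted cells went into droplet-based 3′ scRNA-seq. Each condition thus has 1 library and no replicate, so no p-value is given, and the 95% intervals below cover counting error only. All embryos carried both transgenes, the sort defines which cells could be seen, and the labels and the methods differ on the final concentration of DMSO.

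After filtering, 3612 DMSO and 4429 YM cells remained, with medians of 5866 and 6527 unique molecular identifiers (UMIs) per cell, and 5 barcodes were kept in both libraries. The cells were clustered without the members, the ribosomal protein genes and the related gene lists, and clusters were named from markers. The 6 crest classes held 3472 DMSO and 4269 YM cells. They are ventral arch-like (717 and 640 cells), dorsal arch 1-like (863 and 1042), dorsal arch 2-like (391 and 672), posterior arch-like (432 and 549), frontonasal-like (783 and 1063) and *gata3*-positive cells (286 and 303). In both ventral arch-like clusters *hand2* was the leading gene. It was kept out of the clustering but is among the markers used for naming, so its place is no independent check of the name. Small classes of epidermal, macrophage, neutrophil and erythroid cells had between 11 and 47 cells per library. Pigment cells (9 in DMSO and 11 in YM) and 6 muscle cells of the YM library are not followed here. Levels are UMIs of a gene scaled to the total UMIs of its class and library (counts per 1e6 UMIs, CPM).

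Summed over the 38 genes, the level was highest in ventral arch-like cells and lowest in frontonasal-like cells in both libraries. In ventral arch-like cells the members summed to 7029 CPM (6957 to 7101) in the DMSO library and to 7759 CPM (7686 to 7833) in the YM library. Frontonasal-like cells held 3497 CPM (3438 to 3557) and 3633 CPM (3584 to 3683). Posterior arch-like cells came second, with 5581 and 5907 CPM, followed by dorsal arch 1-like cells with 4804 and 5379 CPM, dorsal arch 2-like cells with 4636 and 5144 CPM and *gata3*-positive cells with 4354 and 4495 CPM. This order was the same in the DMSO and the YM library, and no counting intervals of neighbouring classes overlapped. These intervals leave out the spread within a class, which was wider than the gap between the dorsal classes. In DMSO the dorsal arch 1-like clusters held 5155 and 4289 CPM and the dorsal arch 2-like clusters 5290 and 3912 CPM. The order of the dorsal classes is thus a description of their pooled sums. Relative to the other crest classes of its library, the ventral arch-like sum was higher by 0.62 (0.60 to 0.63) on the log2 scale in DMSO and by 0.65 (0.63 to 0.66) in YM, and the frontonasal-like log2 value was -0.67 (-0.70 to -0.65) and -0.71 (-0.73 to -0.69). The size of the ventral difference depended on how the class and the cells beside it were drawn. It was 0.34 and 0.45 when the clustering was run without cell cycle regression. Among thinned arch 1 and 2-like cells alone, it was 0.37 and 0.44 between those with and without a *hand2* UMI.

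**Figure D1:**
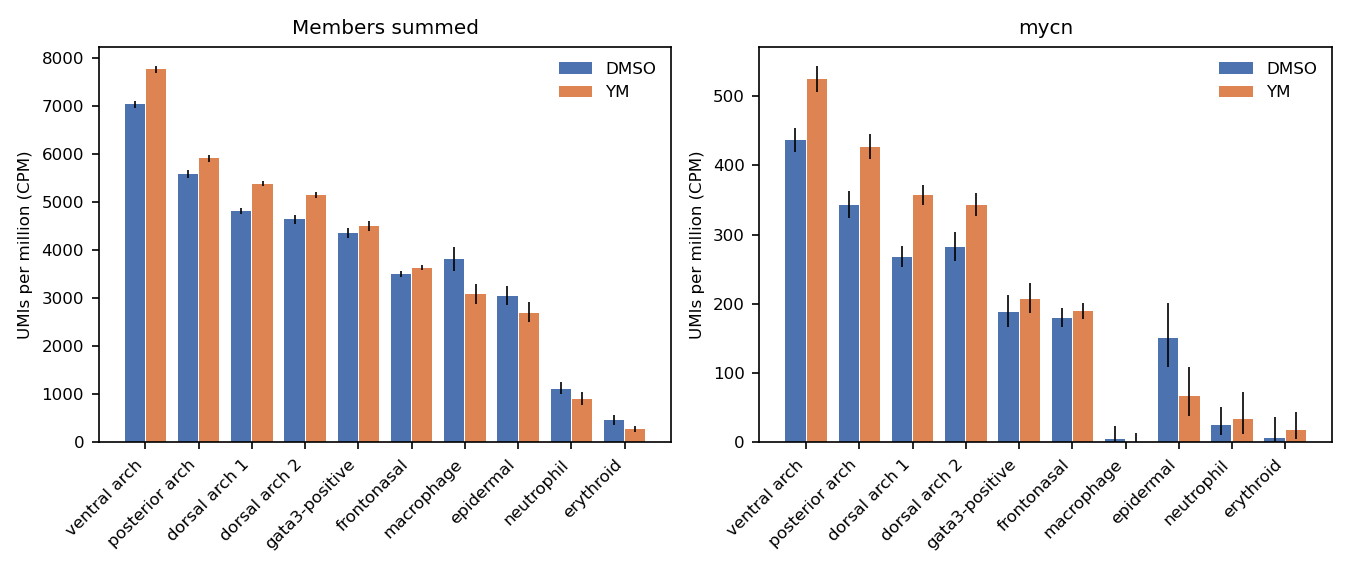
Levels of all members summed (left) and of *mycn* (right) in CPM, by cell class on the x axis and library by colour. Bars start at 0 and error bars are exact 95% Poisson intervals. Ventral arch-like cells are highest in both panels. Macrophages, with 1 and 0 UMIs of *mycn*, have members at 3817 CPM in DMSO, above the frontonasal-like cells, and at 3079 CPM in YM, below them.

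The class difference ran through nearly every member rather than a few abundant ones. Of the 37 members with at least 100 UMIs, 37 were higher in ventral arch-like cells than in the other crest cells of the DMSO library and 36 of those of the YM library. The median log2 difference of the members was 0.60 in DMSO and 0.62 in YM, beside 0.03 and 0.04 for all genes with at least 100 UMIs. None of the 37 was higher in frontonasal-like cells in either library, where their median was -0.62 and -0.61 beside 0.09 and 0.09 for all genes. By single class, 34 members peaked in ventral arch-like cells in DMSO and 36 in YM, and 30 and 29 were lowest in frontonasal-like cells. Neither these counts nor the counts above them were made over all genes. As the members were picked with marker lists of these libraries in view, no excess is read from the counts. The remaining member, *utp18*, was named after its values were seen because it was almost undetected, with 1 UMI in DMSO and 7 UMIs in YM crest cells.

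The classes also differed in depth and in other growth-related transcripts. Median UMIs per cell were 7050 and 8257 in ventral arch-like cells and 4604 and 4975 in frontonasal-like cells. Each cell was also thinned to 3500 UMIs, at which depth 370 shallower crest cells of DMSO and 345 of YM dropped out. The ventral arch-like sums were then 6934 and 7627 CPM and the frontonasal-like sums 3500 and 3618 CPM. Cytosolic ribosomal protein genes, 81 genes that encode the finished ribosome's proteins, followed another order. They made up 44.3% and 45.2% of the UMIs of ventral arch-like cells, less than the 47.9% and 49.2% of dorsal arch 2-like cells, and 40.5% and 42.1% of those of frontonasal-like cells.

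Of the regulator itself, *mycn*, ventral arch-like cells held 436.6 CPM (418.8 to 454.8) in DMSO and 524.5 CPM (505.6 to 544.0) in YM. Posterior arch-like cells held 343.2 and 427.0 CPM, dorsal arch 2-like cells 282.3 and 343.4 CPM, dorsal arch 1-like cells 268.5 and 357.4 CPM, *gata3*-positive cells 189.0 and 207.7 CPM and frontonasal-like cells 179.8 and 189.4 CPM. By counting intervals alone, the ventral and posterior arch-like classes were apart from all others in each library. The 2 dorsal classes changed places between the libraries and overlapped in their intervals, as did the *gata3*-positive and frontonasal-like classes. Among cells thinned to 3500 UMIs, 70.5% (66.9 to 73.9%) of DMSO and 76.2% (72.7 to 79.5%) of YM ventral arch-like cells had a *mycn* UMI, against 85.1% and 90.9% without thinning. The thinned shares were 39.7% and 42.1% in frontonasal-like cells. For comparison, none of 29 DMSO and 28 YM macrophages had one after thinning, which allows shares of up to 11.9% and 12.3%, at median depths before thinning of 8133 and 9434 UMIs.

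The nucleolar proteins held the 2 most abundant members and, as a role, the highest summed ratio of ventral arch-like to other crest cells. *npm1a*, which encodes nucleophosmin, a histone chaperone of the outer nucleolus, stood at 1155 CPM in DMSO and 1312 CPM in YM ventral arch-like cells and at 447.1 and 467.8 CPM in frontonasal-like cells. *ncl* encodes nucleolin, which binds precursor rRNA, and stood at 1074 and 1122 CPM against 514.9 and 514.8 CPM. *nolc1*, a chaperone of small nucleolar ribonucleoproteins, stood at 142.2 and 164.4 CPM against 80.6 and 73.1 CPM. Together with *mybbp1a*, these 4 genes were higher in ventral arch-like than in other crest cells by 0.68 (0.65 to 0.72) in DMSO and 0.71 (0.68 to 0.74) in YM on the log2 scale, and in frontonasal-like cells the log2 value was -0.82 (-0.86 to -0.77) and -0.88 (-0.92 to -0.85).

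Both snoRNP classes were graded in the same direction. The box C/D proteins comprise the methyltransferase fibrillarin (*fbl*), the scaffold proteins *nop56* and *nop58*, and *rrp9*, a protein of the U3 particle. For *nop56*, ventral arch-like cells held 623.1 and 673.3 CPM and frontonasal-like cells 348.4 and 361.6 CPM in DMSO and YM. *nop58* stood at 517.4 and 582.3 CPM against 277.7 and 281.9 CPM, and *fbl* at 457.6 and 489.6 CPM against 239.0 and 250.8 CPM. *rrp9*, at a much lower count, was at 46.3 and 45.4 CPM against 20.2 and 20.3 CPM, so that its log2 difference between ventral arch-like and other crest cells was 0.96 (0.72 to 1.19) in DMSO. Of the box H/ACA proteins, *dkc1*, the pseudouridine synthase dyskerin, stood at 373.3 and 465.7 CPM in ventral arch-like cells and at 206.3 and 235.1 CPM in frontonasal-like cells. Its partners *nop10*, with 277.9 and 271.9 CPM against 144.0 and 149.1 CPM, and *nhp2*, with 249.0 and 263.8 CPM against 133.0 and 125.2 CPM, followed it, and all 4 H/ACA members together were higher in ventral arch-like cells by 0.54 in DMSO and 0.60 in YM.

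The 15 small subunit members were individually low, between 9.77 and 96.6 CPM over all DMSO crest cells apart from *utp18*, and were summed for this reason. Their sum was 647.0 CPM in DMSO and 701.4 CPM in YM ventral arch-like cells and 359.7 and 360.7 CPM in frontonasal-like cells. The 10 large subunit members summed to 823.6 and 923.2 CPM in ventral arch-like and to 445.8 and 498.9 CPM in frontonasal-like cells. Among them *nop2*, a methyltransferase of the large subunit rRNA, stood at 197.4 and 213.5 CPM in ventral arch-like cells and at 133.8 and 143.2 CPM over all crest cells. *noc3l*, which in yeast acts on precursors of the large subunit, stood at 33.1 and 27.7 CPM in ventral arch-like and at 12.6 and 14.3 CPM in frontonasal-like cells.

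The exception among the abundant members was *nop53*, a nucleolar factor of large subunit maturation that is also known in mammals as a regulator of p53. Its highest class was dorsal arch 2-like cells, with 181.6 CPM (165.1 to 199.4) in DMSO and 238.2 CPM (224.5 to 252.5) in YM. Ventral arch-like cells held 148.9 and 188.3 CPM, dorsal arch 1-like cells 152.3 and 204.3 CPM, posterior arch-like cells 144.9 and 190.7 CPM, frontonasal-like cells 113.1 and 156.2 CPM and *gata3*-positive cells 109.6 and 142.8 CPM. Between ventral arch-like and other crest cells its log2 difference was 0.07 (-0.05 to 0.19) in DMSO and -0.03 (-0.13 to 0.07) in YM, the only member of 37 below 0 in YM. Without *nop53*, the large subunit members differed by 0.66 (0.60 to 0.72) and 0.68 (0.63 to 0.74).

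**Figure D2:**
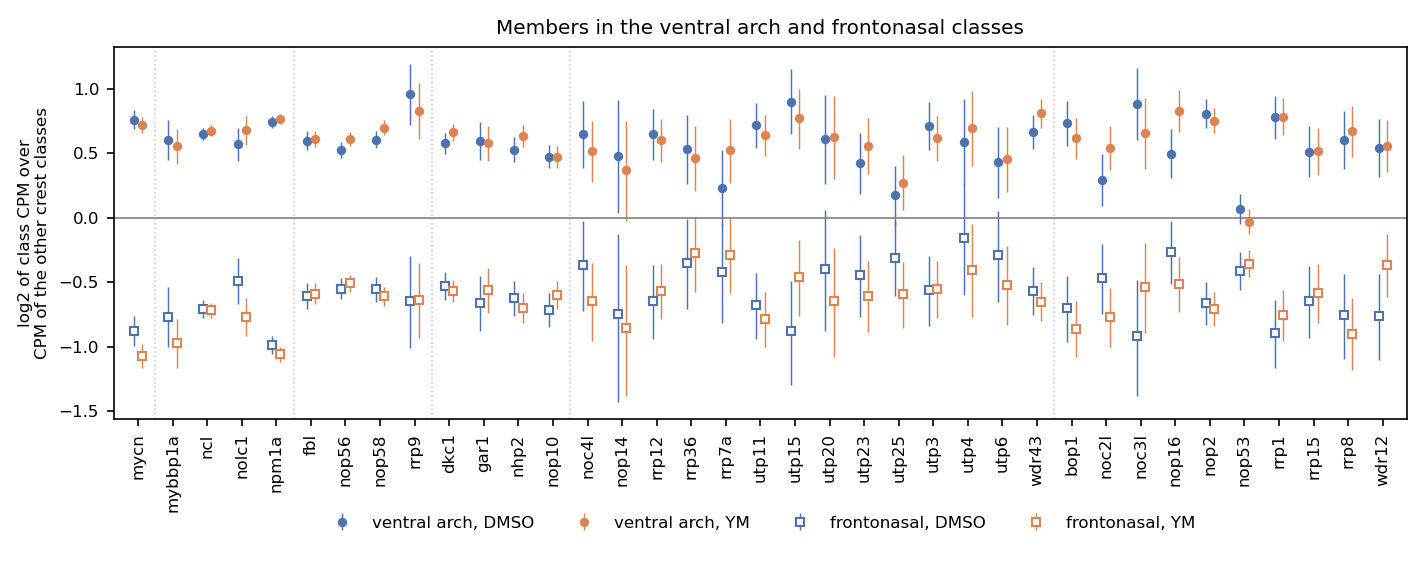
Log2 of the level of each of 37 members in ventral arch-like cells (filled circles) and frontonasal-like cells (open squares) over its level in the other crest classes of the same library, with exact 95% counting intervals. Members are ordered by role from left to right (*mycn*, nucleolar proteins, box C/D, box H/ACA, small subunit, large subunit), separated by dotted lines. Circles lie above and squares below 0 for nearly every gene, and *nop53* sits near 0 in ventral arch-like cells.

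Within a class, the clusters with more of the members did not always have more *mycn*. The 2 ventral arch-like clusters held 7560 and 6150 CPM of the members in DMSO and 8104 and 7126 CPM in YM. The lower of them had the more *mycn*, with 516.8 against 388.0 CPM in DMSO and 578.1 against 495.3 CPM in YM. The same inverse order was seen between the 2 dorsal arch 1-like clusters, where members stood at 5155 and 4289 CPM and *mycn* at 227.5 and 328.4 CPM in DMSO, and in YM at 5738 and 4747 CPM and at 335.2 and 396.5 CPM. Histone genes were among the leading genes of the second of these clusters. Between the 2 dorsal arch 2-like clusters the order was also inverse, though the *mycn* intervals overlapped in both libraries. Members stood at 5290 and 3912 CPM and *mycn* at 268.1 and 298.1 CPM in DMSO, and in YM at 5690 and 4362 CPM and at 335.1 and 355.2 CPM. The 2 frontonasal-like clusters had the same order for both, with members at 3808 and 2908 CPM and *mycn* at 197.9 and 145.6 CPM in DMSO.

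Cell cycle phase ran with the members and with *mycn* in opposite senses. Phase was scored from 98 S and G2M genes, of which 0 are members, in cells thinned to 3500 UMIs, and 1318 DMSO and 1931 YM crest cells scored S, 1731 and 1919 scored G2M, and 53 and 74 scored G1. Cells scored S held more of the members than cells scored G2M in all 6 classes of both libraries, with log2 ratios from 0.11 (0.06 to 0.17) in posterior arch-like YM cells up to 0.71 (0.62 to 0.80) in *gata3*-positive YM cells. For *mycn*, 11 of the 12 log2 ratios were below 0, and 5 of the 12 intervals lay wholly below 0. The clearest were dorsal arch 1-like cells, with -0.44 (-0.67 to -0.22) in DMSO and -0.39 (-0.56 to -0.22) in YM. The share of all counted genes higher in S lay between 51.4% and 59.1%. The share of counted members was not high in every case. It was 10 of 17 in posterior arch-like YM cells, beside 56.5% of all genes, and 17 of 27 in ventral arch-like DMSO cells, beside 55.9%. In *gata3*-positive cells it was 8 of 8 in DMSO and 10 of 10 in YM.

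Within 1 phase the classes also differed. In cells scored S, members stood at 7504 CPM in DMSO and 8094 CPM in YM ventral arch-like cells and at 4343 and 4391 CPM in frontonasal-like cells. In cells scored G2M the values were 6632 and 7376 CPM against 3062 and 3078 CPM. The share of cells scored S was lowest in ventral arch-like cells in both libraries, at 34.6% and 36.3%. The part of phase in the difference between classes was not tested. Phase calls also read free RNA, estimated at 2.36% of the DMSO and 0.364% of the YM library's UMIs in cells, and its part in them was not tested.

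Cells with a *mycn* UMI held more of the other members than cells without one, in every class and library at equal depth. The log2 ratio was 0.41 (0.34 to 0.48) in DMSO and 0.41 (0.35 to 0.46) in YM frontonasal-like cells, where 241 of 607 and 367 of 871 cells had a *mycn* UMI. In ventral arch-like cells it was 0.11 (0.06 to 0.16) and 0.08 (0.02 to 0.13). Of the members with at least 100 UMIs in DMSO dorsal arch 1-like cells, 20 of 23 were higher in cells with *mycn*, beside 58.9% of all genes, in frontonasal-like cells 12 of 13 were, beside 53.7%, and in ventral arch-like cells 21 of 27, beside 57.4%. Even cells without a *mycn* UMI held 6174 CPM of the other members in DMSO ventral arch-like cells, against 3916 CPM in DMSO frontonasal-like cells with one. At a depth of 3500 UMIs a cell with 0 *mycn* UMIs may still express it.

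**Figure D3:**
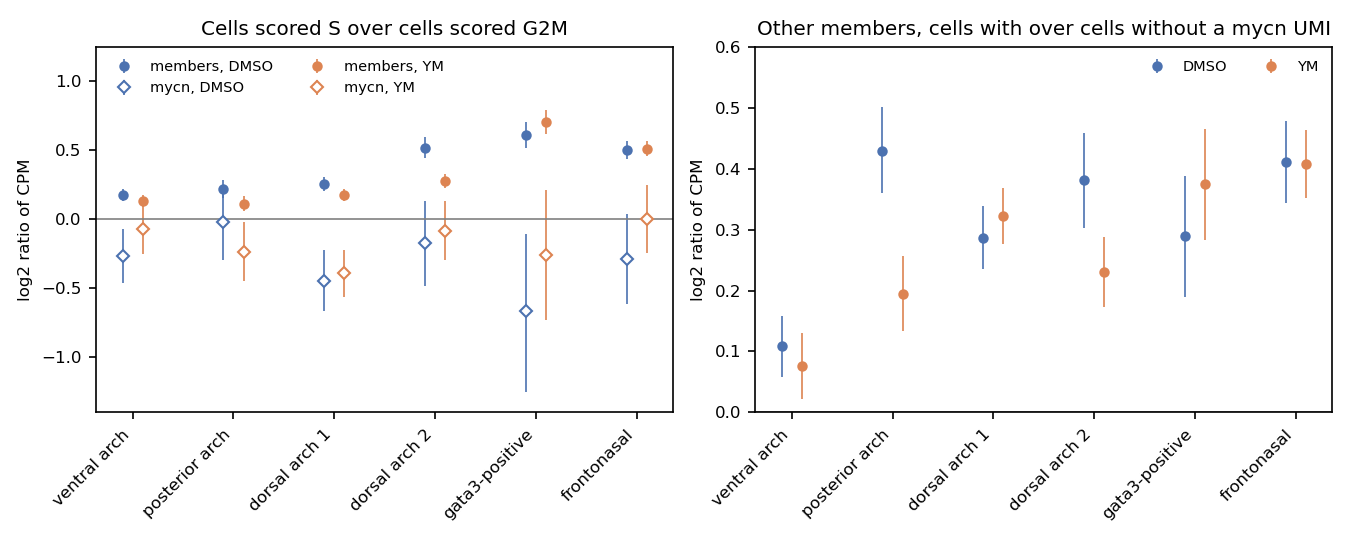
Comparisons within each class of cells thinned to 3500 UMIs, as log2 ratios of CPM with exact 95% counting intervals, by library colour. Left, cells scored S over cells scored G2M, for all members (circles) and for *mycn* (open diamonds). Right, the other members in cells with over cells without a *mycn* UMI. Circles lie above 0 in every class of both panels, and the ratio at right is smallest in ventral arch-like cells, at 0.11 and 0.08.

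Across single cells the class difference was a shift of the whole distribution. Per 3500 UMIs, the median ventral arch-like cell held 22 UMIs of the other members in DMSO and 25 in YM, with quartiles of 16 and 29 and of 19 and 31. The median frontonasal-like cell held 10 and 11 UMIs, with quartiles of 5 and 17 and of 6 and 17. The lower quartile of ventral arch-like cells thus lay close to the upper quartile of frontonasal-like cells.

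Over the 12 profiles of 6 classes in 2 libraries, most members followed *mycn*. Among the 32 other members with at least 1200 UMIs over the profiles, the median Pearson correlation of log2(CPM + 1) with *mycn* was 0.87, and 11 reached 0.9, whereas the median of all 3289 genes was -0.13 and 76 reached 0.9. The closest counted members were *bop1* (0.95), *npm1a* (0.94), *mybbp1a* (0.94), *rrp8* (0.94) and *gar1* (0.94), of which all but *npm1a* were named after their values were seen, and *nop53* (0.66), *nop16* (0.65), *rrp36* (0.61) and *utp25* (0.57), the last also named in that way, were farthest. The 12 points share 2 libraries and differ in depth. The members were also picked with marker lists and lists of YM-changed genes from these libraries in view. These values are therefore a description, and no excess over all genes is read from them. Likeness to *mycn* was shared by some other lists of the pathway. Medians were 0.85 for 34 other large subunit factors, of which 9 reached 0.9, and 0.84 for 31 other small subunit factors, of which 10 did. The median was 0.80 for 14 other growth genes often bound by Myc. It was lower for RNA polymerase I and its factors, at 0.57 over 12 genes, and for other snoRNP factors, at 0.65 over 3 genes. The Myc network had a median of 0.29 over 7 genes. Ribosomal protein genes had a median of 0.61. Outside the members and the cell type markers, the genes most like *mycn* were *pinx1* (0.97), which encodes a nucleolar inhibitor of telomerase, *tktb* (0.97), a transketolase of the pentose phosphate pathway, *tomm7* (0.97), a subunit of the mitochondrial import channel, *si:dkey-102m7.3* (0.96) and *bms1* (0.96), a GTPase of the small subunit processome. In *bms1* the levels ran from 54.2 and 57.1 CPM in frontonasal-like to 103.4 and 115.9 CPM in ventral arch-like cells.

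**Figure D4:**
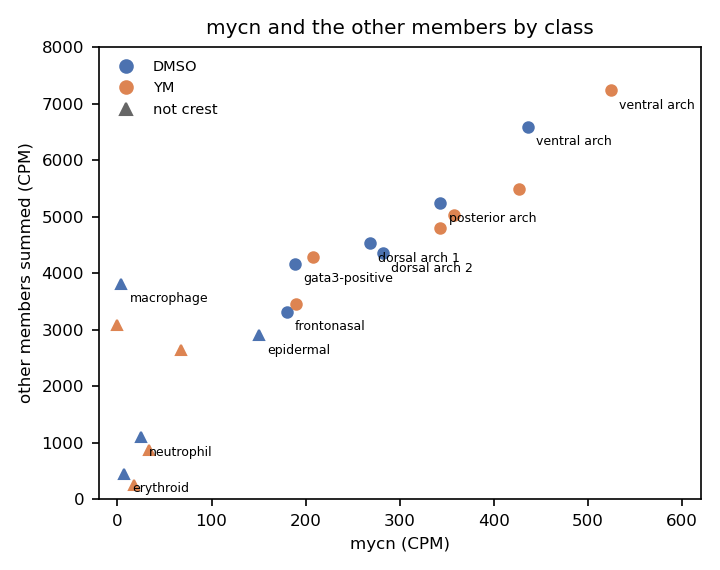
Level of *mycn* (x axis, CPM) against the summed level of the other members (y axis, CPM) for each class and library, with crest classes as circles and other cells as triangles, and class names beside the DMSO points. The crest classes run from frontonasal-like (179.8 and 3317 CPM in DMSO) to ventral arch-like (524.5 and 7234 CPM in YM), and macrophages hold 3812 and 3079 CPM of the other members with *mycn* near 0.

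In macrophages the other members were measured with almost no *mycn*. The 29 DMSO and 28 YM macrophages held 908 and 850 UMIs of the other members, that is 3812 and 3079 CPM, with 1 and 0 UMIs of *mycn*, of which 3 counts would be 12.6 and 10.9 CPM. Per 1000 UMIs of the other members the upper bounds of *mycn* in macrophages were 6.14 and 4.34 UMIs, against 61.8 and 69.6 UMIs in all crest cells and 53.7 and 72.1 UMIs in near-empty barcodes, which hold free RNA. Of the other Myc genes, *mych* stood at 142.8 CPM (98.9 to 199.5) in DMSO and 61.6 CPM (35.9 to 98.6) in YM macrophages, from 34 and 17 UMIs, and at 53.9 and 58.7 CPM in ventral arch-like cells. Neutrophils held 1117 and 907 CPM of the members and erythroid cells 456 and 268 CPM, the lowest of any class.

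Between the treatments, the summed members were slightly higher in YM in most crest classes. As log2 ratios of YM to DMSO, the dorsal arch 1-like cells had 0.16 (0.14 to 0.19), the dorsal arch 2-like cells 0.15 (0.12 to 0.18) and the ventral arch-like cells 0.14 (0.12 to 0.16). The posterior arch-like cells had 0.08 (0.06 to 0.11), the frontonasal-like cells 0.06 (0.02 to 0.09) and the *gata3*-positive cells 0.05 (-0.00 to 0.09). Over all crest cells it was 0.08 (0.07 to 0.09). Ventral arch-like cells, the class with the highest level, made up 19.9% of the kept cells in DMSO and 14.5% in YM. Among thinned cells, the share scored S was larger in YM than in DMSO in all 6 classes. It was 36.8% in DMSO and 45.2% in YM *gata3*-positive cells, and 34.6% and 36.3% in ventral arch-like cells. Within S and within G2M the sums were also higher in YM, except in *gata3*-positive cells scored G2M, with 3612 and 3452 CPM. The part of phase in the difference between libraries was not tested. The median over counted members, those with at least 100 UMIs over both libraries of a class, was 0.10 in ventral arch-like, 0.13 in both dorsal arch-like classes, 0.06 in posterior arch-like, 0.09 in *gata3*-positive and 0.02 in frontonasal-like cells, beside medians of all counted genes from -0.06 to -0.01. The medians of the dorsal arch 2-like and *gata3*-positive cells went below 0 under other clusterings, to as low as -0.04 in each. YM cells were deeper than DMSO cells in all 6 classes, and whether depth had a part in the difference between libraries was not tested beyond the thinned values, which gave 0.14 for ventral arch-like and 0.16 for dorsal arch 1-like cells.

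Past a ratio of 1.2-fold, which serves as the call in the absence of a test, a larger share of the members than of all genes was called higher in each of the 6 classes and a smaller share lower, while most members were not called. The ventral arch-like cells had 7 of 37 counted members called higher and 0 called lower, where 9.23% of all genes were called higher and 13.6% lower. For dorsal arch 1-like cells the counts were 7 of 37 and 0, beside 9.84% and 12.1% of all genes. Dorsal arch 2-like cells had 8 of 34 higher and 1 lower, beside 11.1% and 16.9%, posterior arch-like cells 6 of 36 higher and 2 lower, beside 9.63% and 16%, *gata3*-positive cells 7 of 25 higher and 1 lower, beside 8.89% and 18.1%, and frontonasal-like cells 6 of 36 higher and 2 lower, beside 7.52% and 15.7%. Over all crest cells the only call was *nop53*, 1 of 37 members, beside 6.78% of all genes higher and 12.5% lower. The higher calls of the members came to 41 and the lower calls to 6 over the 6 classes. Of all called genes between 32.4% and 44.8% were higher, a share that ran from 50.6% to 60.1% under TMM scaling, where the members had 48 higher and 2 lower calls. Because the rule drew on these libraries, nothing further is read from the counts. Of the 37 members, 17 were called in no class, 15 only higher, 1 only lower and 4 in both directions.

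Among single members, *nop53* was called higher in YM in all 6 classes, at log2 ratios of 0.47 (0.30 to 0.64) in frontonasal-like, 0.42 (0.29 to 0.56) in dorsal arch 1-like, 0.40 (0.24 to 0.56) in posterior arch-like, 0.39 (0.23 to 0.55) in dorsal arch 2-like, 0.38 (0.09 to 0.68) in *gata3*-positive and 0.34 (0.20 to 0.47) in ventral arch-like cells. The 56 UMIs in YM and 35 UMIs in DMSO macrophages gave 0.47 (-0.17 to 1.12). With all variable genes in the clustering the ventral arch-like ratio of *nop53* was 0.23, short of the call. *nop53* is among the genes that led to the choice of the members, so that its ratio in these libraries is no independent evidence. Without it the 9 other large subunit members together had a ratio of 0.06 (0.03 to 0.10) over all crest cells, in place of 0.15 (0.12 to 0.18).

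*mycn* was called higher in YM in the 4 arch classes, where the dorsal arch 1-like cells had a log2 ratio of 0.41 (0.31 to 0.51), the posterior arch-like cells 0.32 (0.21 to 0.42), the dorsal arch 2-like cells 0.28 (0.15 to 0.41) and the ventral arch-like cells 0.26 (0.19 to 0.34). In *gata3*-positive cells the ratio was 0.14 (-0.10 to 0.37) and in frontonasal-like cells 0.07 (-0.06 to 0.21), intervals that include 0. The ventral arch-like ratio was barely past the call and fell short of it without cell cycle regression, at 0.14, and with free RNA subtracted, at 0.25, and the dorsal arch 2-like ratio was 0.257 at a resolution of 0.3. Over all crest cells it was 0.24 (0.19 to 0.29), short of the call. It was the only member besides *nop53* called in 4 or more classes.

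*dkc1* had ratios of 0.32 (0.23 to 0.40) in ventral arch-like cells and 0.22 (0.17 to 0.26) over all crest cells, while its partners *nhp2*, at -0.03 (-0.09 to 0.03), and *nop10*, at -0.06 (-0.11 to -0.00), were at or below 0 over all crest cells. The level of *dkc1* over all crest cells was 280.9 CPM in DMSO and 326.4 CPM in YM. *npm1a* stood at 806.0 and 874.8 CPM over all crest cells, a ratio of 0.12 (0.09 to 0.15), and *ncl* at 781.9 and 782.4 CPM, a ratio of 0.00 (-0.03 to 0.03). These 2 intervals did not overlap. Ratios over all crest cells also take in the smaller ventral arch-like share of the YM library. In ventral arch-like cells *ncl* had a ratio of 0.06 (0.01 to 0.11). Over the 6 crest classes *ncl* ran from -0.07 to 0.08 and *npm1a* from 0.07 to 0.25. By class *nhp2* ran from -0.09 to 0.08, *nop10* from -0.15 to 0.05 and *dkc1* from 0.11 to 0.32. The box C/D genes *nop58*, *fbl* and *nop56* had ratios of 0.06, 0.05 and 0.01 over all crest cells and of 0.17, 0.10 and 0.11 in ventral arch-like cells.

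Other members with the highest ratios were low in count. In ventral arch-like cells *rrp7a*, a factor of the small subunit processome, had 132 UMIs in DMSO and 183 UMIs in YM, a ratio of 0.39 (0.06 to 0.73), *noc2l* had 280 and 376 UMIs, a ratio of 0.35 (0.12 to 0.58), and *nop16* had 335 and 436 UMIs, a ratio of 0.30 (0.09 to 0.51). The call was lost for *noc2l* in thinned cells, at 0.18, and for *nop16* without an upper gene limit, at 0.23. *rrp12*, which in yeast acts in export of both subunits, was at 0.20 (0.08 to 0.32) and *nop14* at 0.18 (-0.07 to 0.44) over all crest cells. At the other end, *noc3l* had 173 and 153 UMIs in ventral arch-like cells, a ratio of -0.26 (-0.58 to 0.07), and the intervals of *rrp36* (-0.09), *utp15* (-0.06), *nop10* (-0.03) and *rrp9* (-0.03) there also included 0. Over all crest cells *noc3l* was at -0.15, *rrp36* at -0.08, *utp20* at -0.07 and *utp23* at -0.05. In no crest class but the posterior arches did a member have an interval wholly below 0.

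**Figure D5:**
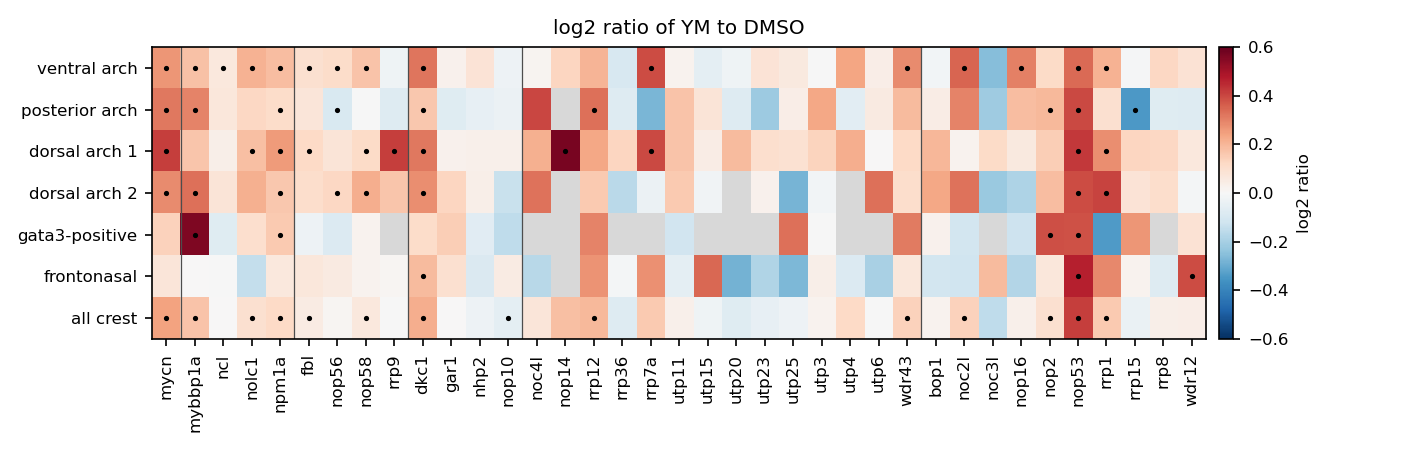
Log2 ratio of YM to DMSO of 37 members (x axis, by role, separated by vertical lines) in 6 crest classes and all crest cells (y axis), on a colour scale from -0.6 (blue) to 0.6 (red). Black dots mark ratios whose 95% counting interval leaves out 0, and grey marks fewer than 100 UMIs. The *nop53* column is red throughout, at 0.34 to 0.47 in the 6 classes, and *mycn* is red in the 4 arch classes.

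Pathway genes outside the members are read beside the 9.23% of all genes called higher and 13.6% called lower in ventral arch-like cells. Of other small subunit factors, 44 of 44 listed genes in the files were counted in ventral arch-like cells, with 4 called higher and 3 lower and a median of 0.05, and of other large subunit factors 43 of 46, with 5 higher and 1 lower and a median of 0.08. The large subunit list summed to 3688 CPM in DMSO and 4076 CPM in YM ventral arch-like cells and to 2240 and 2480 CPM in frontonasal-like cells, and the small subunit list to 2154 and 2295 CPM and to 1200 and 1230 CPM. RNA polymerase I and its factors, with 16 of 18 genes counted, had 0 called higher and 1 lower and a median of -0.04, and summed to 1438 and 1405 CPM against 1042 and 1006 CPM. That list includes *polr2eb*, *polr2f*, *polr2h*, *polr2k* and *polr2l*, whose subunits are shared with other RNA polymerases, so its values are not specific to RNA polymerase I. Of the other snoRNP factors 7 of 10 genes were counted, with 1 higher and 0 lower. The Myc network, in which Max is the shared partner, had 1 of 11 counted genes higher and 3 lower, and its 15 genes summed to 460.6 and 467.1 CPM in ventral arch-like and to 461.0 and 463.0 CPM in frontonasal-like cells. These near-equal sums hold single genes that differed in both directions, named after their values were seen. In DMSO ventral arch-like against frontonasal-like cells, *max* stood at 128.4 against 94.5 CPM and *mycb* at 57.0 against 40.6 CPM. In the other direction, *mxd3* stood at 30.8 against 70.2 CPM and *mxd4* at 2.10 against 36.1 CPM. Of the p53 response, 5 of 10 genes were counted in ventral arch-like cells, 2 of them called higher and 1 lower. Other growth genes often bound by Myc had 1 of 15 counted genes higher and 0 lower, and 80 of 81 ribosomal protein genes were counted, of which 1 was higher and 0 lower, with a median of 0.03.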

How the data were processed

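The deposited files hold unnormalized UMI counts of every gene in every barcode for 2 libraries, which the authors made with Cell Ranger (5.0.1 per the methods, 4 per the file headers) on GRCz11, with no filter on cells. Gene symbols are those of the files, and 38 of 38 member IDs matched the name table. To call cells, Cell Ranger's order-of-magnitude rule was joined by a test of barcodes with at least 500 UMIs against near-empty ones, then filtered at 200 to 3000 (DMSO) or 3500 (YM) genes and under 5% mitochondrial UMIs. Of 25340682 and 33649382 UMIs, called barcodes took 88.8% and 91.3%. Seurat 5.3.0 in R 4.3.3 clustered the cells with 2000 variable genes, 30 principal components, cell cycle regression and a resolution of 0.8, leaving out 364 genes, among them the members. A cluster took the class with most markers among its 10 leading genes, with at least 3 markers raised 2-fold; the unnamed cluster held 13 and 31 cells. No doublets were removed, and Scrublet in scanpy 1.11.5 marked only 1 and 3 cells, which is no working call.

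UMIs were summed per class and library with numpy 2.4.6 and scipy 1.17.1 (Python 3.11.15). CPM have exact Poisson, shares exact binomial and ratios exact conditional binomial 95% intervals. A call means a ratio past 1.2-fold with at least 100 UMIs over both libraries, without a test. The ratio and its interval were tested on simulated data that held counting error alone. The spread between cells or between suspensions was not part of that test. Phase came from 46 S and 52 G2M genes. The members, lists and rules were chosen with earlier results of these data known. Members named are *mycn*, those with at least 100 CPM in DMSO crest cells, the 5 highest and 5 lowest ratios in ventral arch-like and all crest cells, those called in at least 4 classes, and the 5 other genes most like *mycn*. The alternatives changed calling, filters, doublets, clustering, scaling (TMM of edgeR 4.0.16, among others), depth, free RNA, minimum count and fold.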

Additional observations from a re-analysis of the deposited data

Results flagged for a closer look

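The summed members had ratios of YM to DMSO of opposite direction in 5 of the 6 crest classes and in 4 classes of other cells, each with a counting interval that leaves out 0. The exception was the *gata3*-positive class, with 0.05 (-0.00 to 0.09), or -0.02 as the mean over cells. In the others the log2 ratio was 0.14 in ventral arch-like, 0.16 in dorsal arch 1-like, 0.15 in dorsal arch 2-like, 0.08 in posterior arch-like and 0.06 in frontonasal-like cells, and -0.18 (-0.33 to -0.03) in epidermal cells, -0.31 (-0.45 to -0.17) in macrophages, -0.30 (-0.58 to -0.02) in neutrophils and -0.77 (-1.29 to -0.25) in erythroid cells. These 4 classes have 11 to 47 cells per library. With estimated free RNA subtracted the values were -0.17, -0.31, -0.23 and -0.59, and in thinned cells -0.03, -0.25, -0.18 and -0.38. The difference between classes was not tested, and with 1 library per condition it cannot be told apart from a difference between suspensions.

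*nop56* was higher in YM ventral arch-like cells by 0.11 (0.04 to 0.18) and in dorsal arch 2-like cells by 0.13, and lower in posterior arch-like cells, with a log2 ratio of -0.09. Every counted member was searched over the crest classes for counting intervals on both sides of 0, and *nop56* was the gene found. No allowance was made for the number of intervals searched, and each of its ratios was short of the call. This difference between classes was not tested either.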

How the results depend on the processing

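The ventral arch-like class had the highest and the frontonasal-like class the lowest sum of the members in both libraries under all 12 settings that gave 6 classes, and *mycn* was highest in ventral arch-like cells under all of them and lowest in frontonasal-like cells in 17 of 24 values. Most of these settings, the main one included, share the main clustering and could hardly change the order. Only all variable genes, no upper gene limit and no cell cycle regression redrew the classes. TMM factors were fitted between the libraries of each class, so they do not scale classes against each other. At a resolution of 0.3 there was no ventral arch-like class, so that setting has no ventral value. Its dorsal arch 2-like class held 612 and 756 cells, against 391 and 672 in the main clustering, and had *hand2* among its leading genes. A cluster led by histone genes, with 765 and 837 cells, had no name at that resolution. Single members were recomputed only in ventral arch-like and all crest cells, and *mycn* in all classes, and none of those past the call turned direction there. Other classes' members were recomputed only as counts.

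For the ventral arch-like sum over other crest cells (main 0.62 and 0.65), DMSO gave 0.56 with all variable genes, 0.34 without cell cycle regression, 0.59 as the mean over cells, 0.59 with totals without ribosomal protein, mitochondrial and haemoglobin genes, 0.58 without *npm1a* and *ncl*, 0.59 as the mean log2 CPM and 0.37 for thinned cells split by a *hand2* UMI. YM gave 0.67 without an upper gene limit, 0.45 without cell cycle regression, 0.61 with those totals, 0.61 without *npm1a* and *ncl* and 0.44 by *hand2*. Frontonasal-like values (main -0.67 and -0.71) were -0.73 at resolution 0.3, -0.62 without cell cycle regression, -0.63 thinned, -0.81 with those totals, -0.60 without *npm1a* and *ncl* and -0.59 as the mean in DMSO, and in YM -0.74, -0.65, -0.67, -0.84, -0.64 and -0.63, and -0.73 with the highest Scrublet scores removed. Without cell cycle regression a cluster of 506 and 475 cells led by mitosis genes had no name, and the ventral arch-like class held 282 and 270 cells. For other settings the cause was not tested.

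The ventral median of the members was 0.18 with all variable genes and 0.20 without cell cycle regression. The dorsal arch 2-like median (main 0.13) turned to -0.04 at resolution 0.3, where the class held other cells as given above, and to -0.01 without regression. The *gata3*-positive median (main 0.09) turned to -0.04 with all variable genes, -0.03 without an upper limit and -0.00 as the mean over cells. The call of *mycn* was also lost in ventral arch-like cells with the order-of-magnitude rule alone, at 0.261, and with free RNA subtracted, at 0.25, and in dorsal arch 2-like cells at resolution 0.3, at 0.257, and that of *nop53* in ventral arch-like cells with all variable genes, at 0.23. In ventral arch-like cells the ratio of *mycn* was 0.37 with all variable genes and 0.14 without cell cycle regression. It was 0.53 with all variable genes in dorsal arch 1-like cells and 0.29 under TMM over all crest cells. Without thinning, cells with over cells without *mycn* gave 0.33 and 0.19 in ventral arch-like DMSO and YM, 0.47 and 0.40 in dorsal arch 1-like, 0.32 in dorsal arch 2-like YM and 0.68 and 0.27 in posterior arch-like cells, and S over G2M gave 0.53 in *gata3*-positive YM cells.

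At 1.5-fold 0 members were called higher or lower in any class. Higher calls were 11 in ventral arch-like cells with all variable genes and 11 without cell cycle regression. In dorsal arch 2-like cells they were 3 without regression and 2 at resolution 0.3. In *gata3*-positive cells they were 4 with all variable genes, without an upper limit or thinned, and 3 without regression. Over all crest cells they were 3 under TMM and 2 at resolution 0.3 or with the totals above. Lower calls in frontonasal-like cells were 1 with 3000 genes in both libraries, the order-of-magnitude rule alone or Scrublet scores removed, and 0 under TMM or the totals above. In ventral arch-like cells they were 1 with free RNA subtracted and 2 without regression or thinned. In dorsal arch 2-like cells they were 0 under TMM or those totals, 2 with all variable genes and 4 at resolution 0.3. In posterior arch-like cells they were 1 under TMM, all variable genes, Scrublet removal, the mean over cells, no upper limit, thinning or those totals. In *gata3*-positive cells they were 4 at 50 UMIs, 2 with all variable genes, and 0 without regression or thinned. No paired analysis was possible because each condition has 1 library. Depth limits the members under 50 CPM, whose ratios in single classes have intervals wider than the call.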
